A study of Mus musculus with 13 samples.

Results

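Bone morphogenetic protein 3 (Bmp3) was described here with 9 other genes of the BMP pathway in mouse embryonic fibroblasts (MEFs): the ligands Bmp2, Bmp4 and Bmp6, the receptors Bmpr1a and Bmpr2, the secreted antagonist gremlin 1 (Grem1), and the target genes Id1, Id2 and Id3. These 10 genes were taken by symbol from the 57010 genes listed for each library. Bmp3 was singled out by its measured difference between Fucoidan-treated and untreated senescent cells, so its values are given as a description with no test, and counts of members refer to the other 9, all of which passed the filter on low counts.

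Total RNA was sequenced from primary wild-type (WT) MEFs numbered mouse 4, mouse 5 and mouse 6, each present in 4 groups. Control MEFs were non-senescent and untreated. Senescent MEFs had been given etoposide, a topoisomerase II inhibitor that breaks DNA, at 2 µM for 24 h with 5 days of recovery, and the remaining groups were such senescent MEFs kept for 12 h with Fucoidan-FV, a sulfated fucose-rich polysaccharide of brown seaweed, at 100 or 300 µg/mL. The control of mouse 5 had 2 libraries, 5(1) and 5(2), whose counts were summed, so that 13 libraries gave 12 samples with n = 3 per group. Embryonic fibroblasts are a primary culture that keeps some cells of other lineages, and in such bulk RNA fewer cells of a type and less RNA per cell cannot be told apart.

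BMPs are secreted as dimers that bring type I receptors such as BMPR1A together with type II receptors such as BMPR2. The receptors phosphorylate SMAD1, SMAD5 and SMAD9, which enter the nucleus with SMAD4 and switch on, among others, the ID genes. ID proteins are helix-loop-helix factors without a DNA-binding region that hold E proteins away from DNA, and they are known for keeping cells undifferentiated and dividing. BMP3 is an unusual member of the family that is known mainly as an inhibitor of BMP signalling, and gremlin 1 binds BMP2 and BMP4 outside the cell and blocks them. In fibroblasts and other mesenchymal cells the pathway is known for its part in bone and cartilage formation.

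The libraries held 22782536 to 31278750 counts. Cdkn1a and Cdkn2a, the cell-cycle inhibitors p21 and p16/p19 that mark senescence, were at 468 ± 83.2 and 45.2 ± 8.41 CPM (counts scaled to library size, mean ± SD, n = 3) in control MEFs and at 1650 ± 187 and 248 ± 89.3 CPM in senescent MEFs. All 9 fibroblast markers were detected over 1 CPM, with a summed level of 10600 to 16500 CPM in every sample. Of the other cell types checked, a chondrocyte list, 97.9% of it Col2a1, summed to 618–871 CPM in control, 222–353 in senescent, 116–184 at 100 µg/mL and 158–220 at 300 µg/mL, with 3 of 5 markers over 1 CPM. A skeletal muscle list, 99.3% of it Acta1, summed to 81.7–122, 74.6–93.3, 14–51.7 and 18.3–43.3 CPM in the same order, with 1 of 6 markers over 1 CPM, and an endothelial list, of which 1 of 5 markers passed 1 CPM, to 1.32–2.04, 1.47–3.3, 5.92–11.7 and 5.23–8.36 CPM. The macrophage, epithelial, osteoblast, adipocyte and neural crest or glia lists summed to at most 13.4 CPM in any sample. No marker of any list was at 0 counts throughout. Between control and senescent only the chondrocyte sums did not overlap. In treated samples the chondrocyte and muscle sums lay below, and the endothelial sums above, those of all untreated samples. The macrophage sums of treated samples lay above those of control. The fibroblast sums overlapped between all groups, and no list was apart between the doses. The part of these sums in the results was not tested. Genes of which over 95% of the sequence belongs to a single listed transcript also shifted together from library to library, by −1.46 (control of mouse 6) to 1.21 (100 µg/mL, mouse 5) on the log2 scale for the median of 723 such genes, against −0.17 to 0.16 for genes with under 50% of such sequence. Among the members this touches Bmp2 and Grem1 (100%) and Bmpr2 (98.2%), and to a lesser degree Id3, Bmp6 and Bmpr1a (72%, 69.7% and 66%), while Bmp3 (10.2%), Bmp4 (6.2%), Id2 (28%) and Id1 (32.3%) have little sequence of this kind.

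Bmp3 RNA was absent or nearly so without Fucoidan-FV and present in every treated sample. The control samples of mouse 4, mouse 5 and mouse 6 gave 1, 3 and 0 counts, and all senescent samples gave 0. At 100 µg/mL the counts were 47, 31 and 110 for mouse 4, mouse 5 and mouse 6, and at 300 µg/mL they were 112, 65 and 73. No treated sample overlapped with an untreated one. In CPM the treated groups stood at 2.15 ± 1.44 and 3.23 ± 1.03 (SD, n = 3). Set against a floor of 3 counts over the whole senescent group, which covers counting error only, Bmp3 was at least 60.3-fold higher at 100 µg/mL and at least 89.6-fold higher at 300 µg/mL. The fold against control rested on 4 control counts, with ratios of depth-scaled counts of 51.6 and 76.7. These are the values for which the gene was chosen. Bmp3 remained a low-abundance transcript: per length it reached 0.727 ± 0.489 and 0.927 ± 0.0404 TPM (scaled for transcript length and library size) with the low and the high dose.

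Bmp3 lies on the plus strand of chromosome 5, at chr5:99002268-99032255 of GRCm39, and shares no sequence with a gene on the opposite strand. The 150 bases just upstream of its annotated start are shown because Bmp3 was the member whose RNA was nearly confined to treated samples. Id1 and Id2, which were lower in treated samples and whose windows hold no annotated exon, are given beside it for contrast. In each line capitals mark a GC box (GGGCGG, or CCGCCC on the other strand) or a TATA box (TATAAA, on the gene's strand), neither of which overlaps the other here.
Bmp3: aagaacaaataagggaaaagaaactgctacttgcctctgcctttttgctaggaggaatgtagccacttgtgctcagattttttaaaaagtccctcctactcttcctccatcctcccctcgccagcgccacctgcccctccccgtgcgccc
Id1: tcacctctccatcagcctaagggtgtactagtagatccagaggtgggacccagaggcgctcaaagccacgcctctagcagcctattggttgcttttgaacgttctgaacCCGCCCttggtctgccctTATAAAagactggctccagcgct
Id2: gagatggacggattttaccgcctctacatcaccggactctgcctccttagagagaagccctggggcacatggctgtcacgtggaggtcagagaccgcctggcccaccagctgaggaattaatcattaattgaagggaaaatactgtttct
The windows are chr5:99002118-99002267 (plus strand), chr2:152578015-152578164 (plus strand) and chr12:25147283-25147432 (minus strand, printed in the direction of the gene), and were read from GRCm39 at the GENCODE start. Id1 has 1 GC box and 1 TATA box, whereas neither set of letters is found in the Bmp3 or the Id2 window. Among the 21664 protein-coding genes with a start in the same annotation, 32.6% have a GC box and 5.32% a TATA box in this stretch.

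By a rule that looked for the genes with the most similar levels over the 12 samples, among 13366 genes reaching 1 CPM in their highest group, Bmp3 was most like Sema6a (Pearson r of 0.968), Adam22 (0.962) and Ednrb (0.961). Sema6a encodes a transmembrane semaphorin, Adam22 a catalytically inactive member of the ADAM family and Ednrb the endothelin receptor type B. Their mean levels over control, senescent, 100 and 300 µg/mL ran from 5.88 and 6.26 to 15.4 and 20.1 CPM for Sema6a, from 3.19 and 3.81 to 11.5 and 14 CPM for Adam22, and from 0.0207 and 0.234 to 5.64 and 7.36 CPM for Ednrb. The samples share groups and animals, and the values are those for which Bmp3 was chosen, so these r values are descriptions with no p. The nearest relative of Bmp3, Gdf10 (also called BMP3B), gave group totals of 5, 11, 42 and 31 counts in the same order. Its log2 differences from senescent were 1.94 (SE 1.14, adjusted p of 0.377 in edgeR's quasi-likelihood test) and 1.62 (SE 1.14, adjusted p of 0.56), within the spread between samples.

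**Figure D1:**
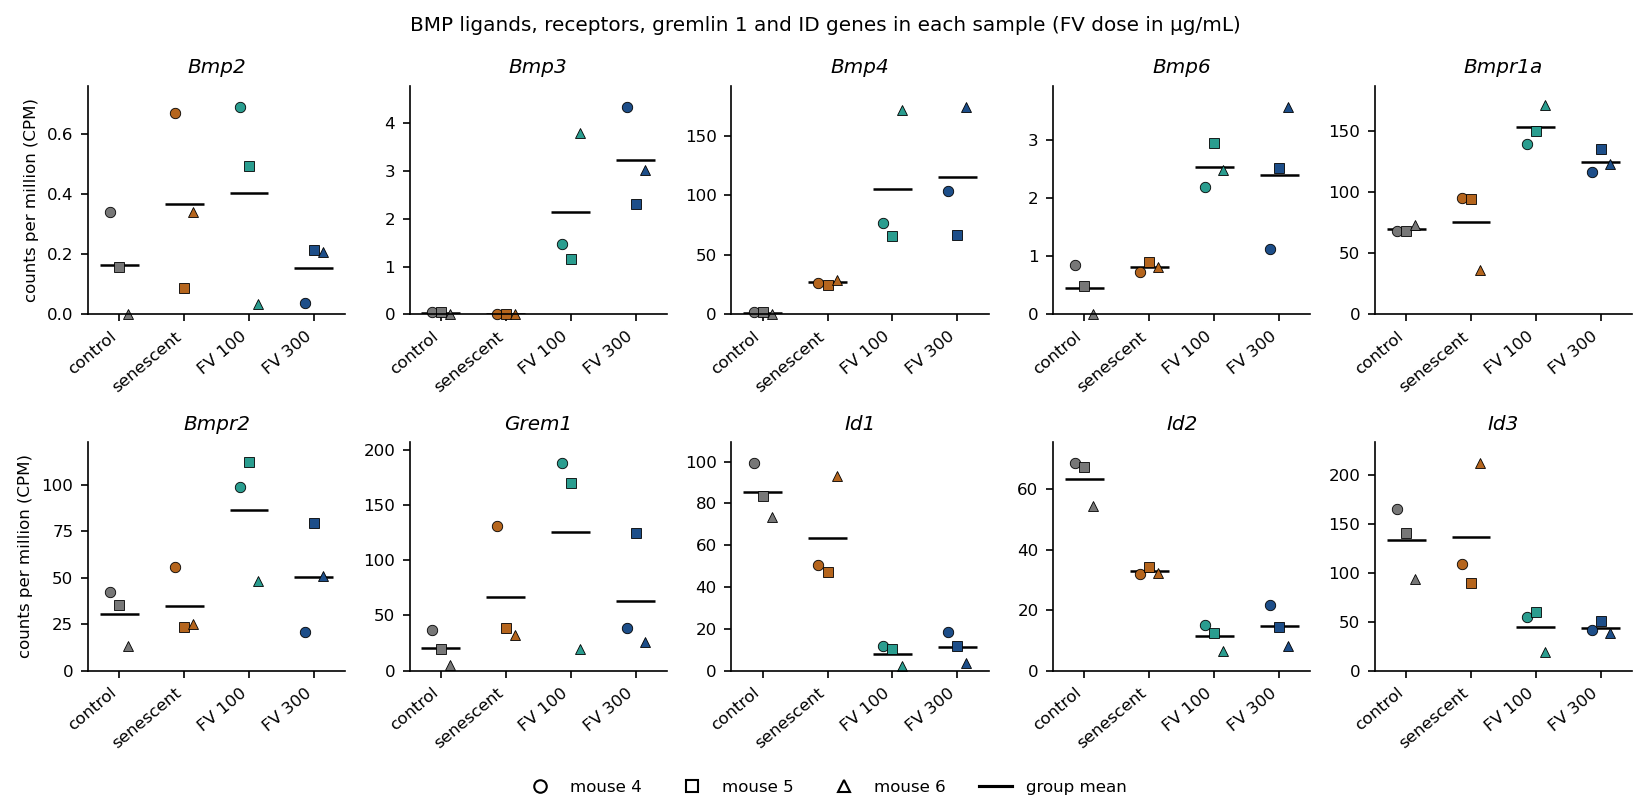
Level of each gene (y axis, CPM, from 0) in the 3 samples of each group (x axis, with the Fucoidan-FV dose in µg/mL), with 1 symbol per mouse and a line at the group mean. Bmp3 is at or near 0 without Fucoidan-FV and lies between 1.17 and 4.34 CPM with it, Bmp4 steps up from control to senescent, and Id1 lies between 2.08 and 18.5 CPM in treated samples against 47 to 99.2 CPM in the others.

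Bmp4, a ligand with strong signalling activity, made up most of the RNA of the 4 ligands among the members and rose with senescence. Its level was 2, 2.2 and 0 CPM in the controls of mouse 4, mouse 5 and mouse 6, and 26.5, 24.7 and 29.1 CPM in the senescent samples of the same mice. Every senescent sample was more than 10 times as high as every control. Senescent MEFs differed from control by 4.19 on the log2 scale (18.3-fold, SE 0.75, adjusted p of 0.00274, edgeR quasi-likelihood test), higher in 3 of 3 mice, and the call was made in all 6 fits that left out 1 sample. Bmp4 was the only member called higher in this comparison (1 of 9, where 4.47% of the 15034 genes tested were called higher), with a call being an adjusted p under 0.05 with a log2 difference over 1. No member was called lower (0 of 9, background 3.95%).

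With Fucoidan-FV, Bmp4 stood at 76.5, 66.2 and 172 CPM at 100 µg/mL and at 104, 66.9 and 174 CPM at 300 µg/mL for mouse 4, mouse 5 and mouse 6. All 6 treated samples lay above all 3 senescent samples, and mouse 6 was the highest at both doses. The difference from senescent was 1.97 (3.91-fold, SE 0.66) and 2.1 (4.29-fold, SE 0.66) on the log2 scale, but with adjusted p of 0.113 and 0.128 neither passed the test. Compared with control, where the difference includes that of senescence, Bmp4 was called higher at both doses, by 6.16 (SE 0.81, adjusted p of 0.000143) and 6.3 (SE 0.81, adjusted p of 0.000141). Of the sequence listed for Bmp4, 15.1% overlaps a gene on the opposite strand, and whether counting used the strand is not given in the sources used here.

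The other ligands were low. Bmp6, a ligand known from cartilage and from iron regulation in the liver, was at 0.735, 0.905 and 0.815 CPM in the senescent samples of mouse 4, mouse 5 and mouse 6, at 2.19, 2.95 and 2.49 CPM at 100 µg/mL, and at 1.12, 2.53 and 3.57 CPM at 300 µg/mL. The treated samples lay above the senescent ones throughout, yet the log2 differences of 1.63 (SE 0.88, adjusted p of 0.329) and 1.55 (SE 0.87, adjusted p of 0.442) did not pass. Against control, with 0.85, 0.491 and 0 CPM, the differences of 2.49 (adjusted p of 0.0586) and 2.4 (adjusted p of 0.0698) missed the threshold. They passed it by DESeq2 and, in edgeR, with an offset for the library shift of single-transcript sequence (0.0336 and 0.0364). With the mouse added to that offset as a replicate block they did not (0.0603 and 0.069). Of 16 alternative fits, 8 called Bmp6 against control at 100 µg/mL and 3 at 300 µg/mL. Bmp2, the closest relative of Bmp4, did not exceed 0.689 CPM in any sample, and its groups overlapped in every comparison.

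Summed per length, the 4 ligands came to 1.8 ± 1.58 TPM in control, 24.4 ± 3.16 in senescent, 149 ± 39.6 at 100 µg/mL and 146 ± 76.5 at 300 µg/mL (SD, n = 3). Bmp4 supplied 68.4% of the control sum, 94.8% of the senescent sum and 97.6% and 96.6% of the treated sums. Among these 4 ligands, the order of mean TPM in treated samples was Bmp4, Bmp6, Bmp3 and Bmp2 at both doses. The ranges of Bmp6 (1.68 to 4.37 TPM at 100 µg/mL) and Bmp3 (0.42 to 1.29 TPM) did not overlap at either dose, whereas in senescent samples Bmp6 was at 1.12 ± 0.251 TPM and Bmp3 at 0.

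**Figure D2:**
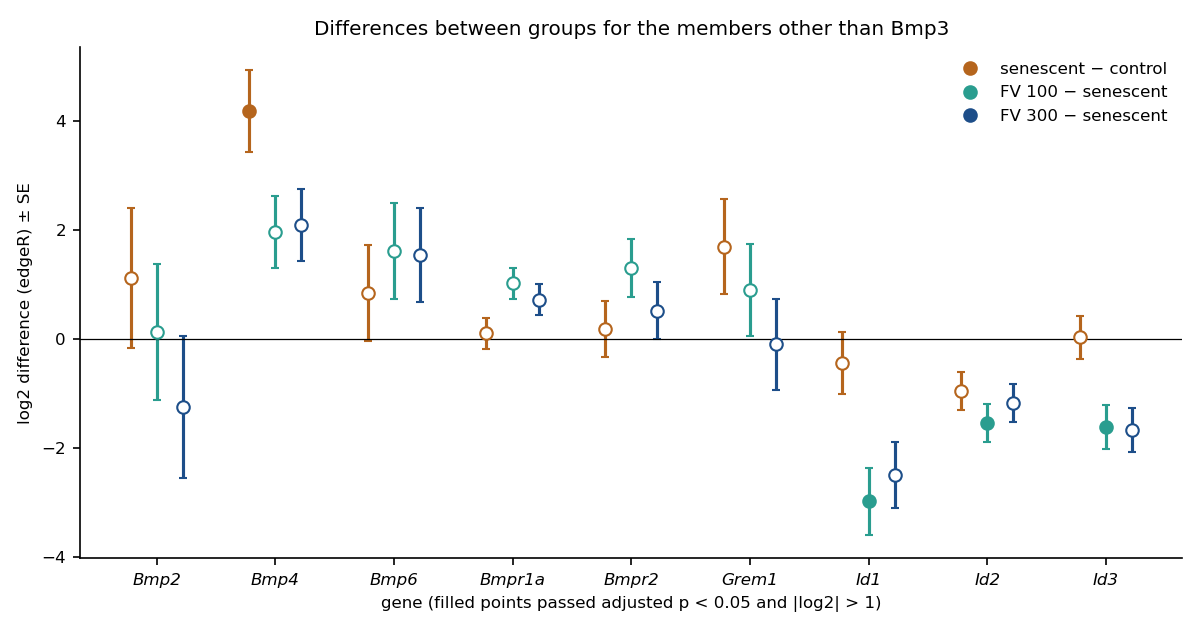
Log2 difference between groups (y axis, edgeR, points with SE bars) for the 9 members other than Bmp3 (x axis), in senescent minus control and in each Fucoidan-FV dose minus senescent. Filled points passed the test: Bmp4 in senescent minus control at 4.19, and Id1, Id2 and Id3 at 100 µg/mL at −2.97, −1.54 and −1.61.

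The ID genes fell at 100 µg/mL Fucoidan-FV. Id1 was at 99.2, 83.4 and 73.7 CPM in the controls of mouse 4, mouse 5 and mouse 6 and at 50.5, 47 and 93 CPM in the senescent samples. It was at 11.8, 10.5 and 2.08 CPM at 100 µg/mL and at 18.5, 11.8 and 3.57 CPM at 300 µg/mL. Each treated sample lay below every untreated one, and mouse 6, the highest senescent sample, was the lowest treated sample at both doses. The difference from senescent was −2.97 on the log2 scale at 100 µg/mL (7.83-fold lower, SE 0.62, adjusted p of 0.0198) and −2.49 at 300 µg/mL (5.62-fold lower, SE 0.61, adjusted p of 0.0563), lower in 3 of 3 mice at each dose. Only the low dose passed the test.

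Id2 was at 68.8, 67.2 and 54.3 CPM in the controls of mouse 4, mouse 5 and mouse 6 and at 32.1, 34.3 and 32.4 CPM in the senescent samples. It stood at 15, 12.4 and 6.51 CPM at 100 µg/mL and at 21.8, 14.5 and 8.09 CPM at 300 µg/mL. The groups followed each other downwards without overlap except between the doses. At 100 µg/mL Id2 was lower than in senescent cells by −1.54 on the log2 scale (2.92-fold lower, SE 0.35, adjusted p of 0.0312), and at 300 µg/mL the difference of −1.16 (2.23-fold lower, SE 0.35, adjusted p of 0.116) did not pass. The senescent samples lay below control by −0.94 (SE 0.35, adjusted p of 0.101), which also did not pass.

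Id3 had the highest TPM of the members in untreated cells, with 230 ± 51.3 TPM in control and 235 ± 69.5 TPM in senescent MEFs (SD, n = 3). In CPM the controls of mouse 4, mouse 5 and mouse 6 were at 165, 141 and 93.7 and the senescent samples at 109, 89.8 and 213, which overlap. The treated samples were at 55.1, 60.2 and 19.5 CPM at 100 µg/mL and at 41.1, 50.9 and 38.2 CPM at 300 µg/mL, all below every untreated sample. The difference from senescent was −1.61 (3.05-fold lower, SE 0.4, adjusted p of 0.0446) at 100 µg/mL and −1.66 (3.16-fold lower, SE 0.41, adjusted p of 0.0569) at 300 µg/mL. With the mouse as a replicate block the low-dose call was lost (adjusted p of 0.0687). Of 17 alternative fits, 6 made the low-dose call of Id3, 11 that of Id1 and 9 that of Id2. With the offset for single-transcript sequence Id3 passed at the high dose (adjusted p of 0.028), while Id2 at the low dose no longer did (adjusted p of 0.064).

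Of the 9 members, edgeR thus called 3 lower and 0 higher at 100 µg/mL against senescent (1.6% of all genes lower and 1.1% higher). DESeq2 called the same 3 lower and Bmpr1a higher, and of all 15034 genes it called 770, with 480 of them higher. At 300 µg/mL, 0 of 9 were called by edgeR in either direction (background 0.885% lower and 0.752% higher). There 5 of 9 had an unadjusted p under 0.05, as did 15.3% of all genes. DESeq2 called 3 lower, the ID genes, and 606 of all 15034 genes, with 330 of them higher. The 3 low-dose calls sat close to the threshold. When 1 of the 6 samples was left out, Id1 was called in 1 of 6 fits and Id2 and Id3 in none, and a fit of these 2 groups alone called Bmp4 but no ID gene. Against control the ID genes were called lower at both doses, Id1 by −3.4 and −2.92, Id2 by −2.49 and −2.1 and Id3 by −1.57 and −1.62, with adjusted p between 0.00031 and 0.0116. The background there was 9.37% called lower at 100 µg/mL and 8.11% at 300 µg/mL. Leaving out 1 sample kept the calls of Id1 and Id2 against control in all 6 fits per dose and that of Id3 in 4 of 6, losing it without the control of mouse 4 or mouse 5.

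Groups that did not overlap were seen for 6 of the 9 members at each dose against senescent, namely Bmp4, Bmp6, Bmpr1a, Id1, Id2 and Id3, where 26.2% of all genes did not overlap at 100 µg/mL and 19.6% at 300 µg/mL. Between senescent and control 2 of 9 did not overlap, Bmp4 and Id2, against 27.1% of all genes. The summed TPM of Id1, Id2 and Id3 was 435 ± 90.3 in control, 376 ± 94.5 in senescent, 141 ± 74.9 at 100 µg/mL and 141 ± 34.3 at 300 µg/mL (SD, n = 3). The sums of control (346 to 526 TPM) and senescent (292 to 478 TPM) overlapped, and both lay above the treated sums (54.8 to 186 and 103 to 169 TPM).

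The libraries of the control of mouse 5 show how far single libraries of the same group and animal can lie apart. Id1 was at 108 CPM in library 5(1) and 38.3 CPM in 5(2), Id2 at 77.8 and 42.7 CPM, and Id3 at 116 and 148 CPM. Bmp4 was at 0.393 and 4.08 CPM, and Grem1 at 7.7 and 31.9 CPM. With either library alone, Bmp4 was still called in senescent against control, and Id1 and Id2 at 100 µg/mL against senescent. Id3 was called in the latter comparison with library 5(1) alone but not with 5(2) alone. These single-library CPM were scaled to library totals alone, unlike those of the samples. The lower of the paired values for Id1 was above the value of each of the 6 treated samples.

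Within these 12 samples the ID genes ran together, with a Pearson r of log2(CPM + 0.5) of 0.96 between Id1 and Id2 and 0.94 between Id1 and Id3. Bmp4 ran opposite to them, with r of −0.79 for Id1, −0.88 for Id2 and −0.68 for Id3, and Bmp3 likewise, with r of −0.89, −0.84 and −0.9. These values are descriptions over samples that share groups and animals. Those of Bmp3 also rest on the values for which it was chosen. Inside the treated groups the sample of mouse 6 was at once the highest in Bmp4 and the lowest in Id1, Id2 and Id3 at both doses. In senescent samples Bmp4 was above control while Id1 and Id3 overlapped with control. Id2 lay below control there without overlap, by a difference of −0.94 that did not pass the edgeR test (adjusted p of 0.101).

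**Figure D3:**
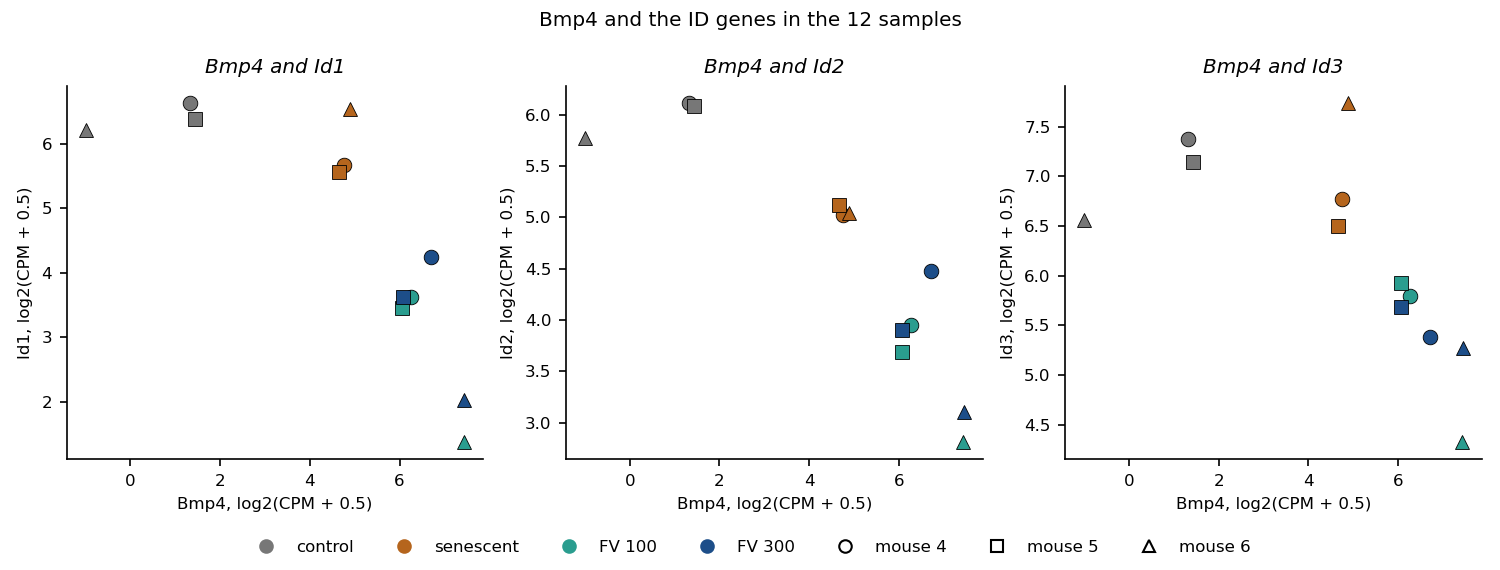
Bmp4 (x axis) against Id1, Id2 and Id3 (y axes), both as log2(CPM + 0.5), with 1 point per sample, coloured by group and shaped by mouse. From control to senescent the points move to the right. The levels of Id1 and of Id3 overlap between these groups, while those of Id2 are lower in the senescent samples. The 6 treated samples lie lowest, with mouse 6 at the lower right. The r values were −0.79, −0.88 and −0.68.

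Other genes most like Id1 over the 12 samples were Siglecg (r of 0.971), which encodes an inhibitory sialic-acid-binding lectin of B cells, Smad7 (0.968), an inhibitory SMAD that is itself induced by the pathway, and the predicted gene Gm48597 (0.967). Siglecg went from 70.4 and 52 CPM in control and senescent to 15.4 and 17.8 CPM at 100 and 300 µg/mL. Smad7 went from 62.9 ± 9.12 and 52.7 ± 6.13 to 31.7 ± 7.11 and 34.3 ± 6.41 CPM (SD, n = 3), with treated samples below all senescent ones. Against senescent the log2 differences of Smad7 were −0.73 (SE 0.23, adjusted p of 0.0879) and −0.62 (SE 0.23, adjusted p of 0.199), short of the test and of the 2-fold limit. The fourth ID gene, Id4, did not follow the other three: its means of 3.98, 2.54, 5.32 and 2.81 CPM overlapped in all groups, and its difference from senescent at 100 µg/mL was 1.06 (SE 0.79, adjusted p of 0.503).

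Binding sites of the BMP SMADs in ID promoters are well known, so the 2000 bases upstream of each member's start were searched for the site of SMAD1 and SMAD5, GGCGCC, which reads the same on both strands, alone and followed or preceded at 5 bases by the short SMAD4 motif, GTCT or AGAC on the other strand. The single site was found upstream of Bmpr1a (2 sites), Bmpr2 (2), Grem1 (1), Id1 (1) and Id2 (2), and in 18.3% of 21664 protein-coding genes. The paired arrangement was found in 0.272% of them and, among the members, in Id2. The Id1 and the paired Id2 windows are shown because these genes fell, with the letters searched for in capitals.
Id1 (1093 bases upstream, chr2:152577057-152577092, plus strand): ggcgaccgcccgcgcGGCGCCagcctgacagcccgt
Id2 (1585 bases upstream, chr12:25148838-25148882, minus strand): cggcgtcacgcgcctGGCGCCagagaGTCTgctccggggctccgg
Neither window overlaps an annotated exon. For Id3, Bmp2, Bmp3, Bmp4 and Bmp6 these letters were not in the window searched. A match of letters is a description and does not show that a SMAD binds there.

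Bmpr1a, the type I receptor for BMP2 and BMP4, was at 68.3, 68.2 and 72.7 CPM in the controls of mouse 4, mouse 5 and mouse 6 and at 95.3, 94 and 36.3 CPM in the senescent samples. With Fucoidan-FV it was at 139, 150 and 171 CPM at 100 µg/mL and at 116, 135 and 123 CPM at 300 µg/mL. All treated samples were above all others. The log2 difference from senescent was 1.03 at 100 µg/mL (2.04-fold, SE 0.28, adjusted p of 0.0585) and 0.73 at 300 µg/mL (1.65-fold, SE 0.28, adjusted p of 0.225), and neither passed by edgeR. Bmpr1a was called at 100 µg/mL by DESeq2 (log2 difference 1.12, adjusted p of 0.00809), and by edgeR with no filter beyond 1 count (adjusted p of 0.001), with at least 10 counts in every sample (0.0393) and without the senescent sample of mouse 4 (1.41, 0.041). Against control Bmpr1a was called higher at 100 µg/mL, by 1.14 (SE 0.28, adjusted p of 0.00972), and at 300 µg/mL its difference of 0.84 (SE 0.28, adjusted p of 0.0457) stayed under the 2-fold limit of a call. The related type I receptor Bmpr1b was lower, at 24 ± 4.99, 17 ± 8.21, 16.3 ± 6.13 and 18.6 ± 2.79 CPM over the 4 groups, with no difference beyond the spread between samples.

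Bmpr2, the main type II receptor of the BMPs, was at 42.5, 35.5 and 13.3 CPM in the controls of mouse 4, mouse 5 and mouse 6, at 55.6, 23.7 and 25.1 CPM in senescent, at 98.9, 112 and 48.1 CPM at 100 µg/mL, and at 20.5, 79.3 and 51.1 CPM at 300 µg/mL. The samples of a group were up to several times apart, and apart from 100 µg/mL against control the groups overlapped. That last difference was 1.5 (2.83-fold, SE 0.53, adjusted p of 0.0521), which a replicate block by mouse moved just past the threshold (adjusted p of 0.0452). The difference was called by DESeq2 as well, and in 8 of 17 alternative fits in all. With the offset for single-transcript sequence it came to 0.75 on the log2 scale and was not called, either without the block (adjusted p of 0.0624) or with it (adjusted p of 0.0869). Its lowest samples, the control of mouse 6 and the 300 µg/mL sample of mouse 4, were among the libraries with low levels of single-transcript sequence, with medians of −1.46 and −1.11.

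Grem1, the secreted BMP antagonist, varied widely between the samples of a group. It was at 37, 20 and 5.22 CPM in the controls of mouse 4, mouse 5 and mouse 6, at 131, 38.4 and 31.9 CPM in senescent, at 188, 170 and 19.2 CPM at 100 µg/mL, and at 38.8, 125 and 26.3 CPM at 300 µg/mL. Every pair of groups overlapped. Even so, its difference of 2.6 between 100 µg/mL and control was called (6.07-fold, SE 0.89, adjusted p of 0.0458). Among the 6 fits that left out a sample, the call was kept only without the 100 µg/mL sample of mouse 6. It was lost with the offset for single-transcript sequence (adjusted p of 0.0516) and kept with the offset and a replicate block together (adjusted p of 0.00641). At 300 µg/mL against control the difference of 1.61 (adjusted p of 0.201) was not called. It was called with the mouse as a replicate block (adjusted p of 0.0389) and with the offset and block together (adjusted p of 0.0059).

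Against control, then, edgeR called 3 of 9 members higher at 100 µg/mL (Bmp4, Bmpr1a and Grem1, background 10.3%). At 300 µg/mL it called 1 of 9 higher (Bmp4, background 9.87%), next to the 3 ID genes called lower at each dose. DESeq2 called 5 higher at 100 µg/mL, with Bmp6 and Bmpr2 added, and 2 at 300 µg/mL, Bmp4 and Bmp6. It called the same 3 ID genes lower at each dose. Of all 15034 genes DESeq2 called 3558 at 100 µg/mL, 2189 of them higher, and 3201 at 300 µg/mL, 1860 of them higher. The comparisons with control share their control samples with that of senescence, and the comparisons with senescent share the senescent samples. Between the doses no member was called by edgeR or by DESeq2, and none had an unadjusted p under 0.05, while 1 of all genes (0.00665%) was called and 94 had an unadjusted p under 0.05. The log2 difference of 300 minus 100 µg/mL was 0.13 (SE 0.63) for Bmp4, 0.48 (SE 0.58) for Id1, 0.39 (SE 0.35) for Id2 and −0.05 (SE 0.4) for Id3.

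The rest of the pathway was followed with a list of 56 further genes, of which 45 passed the filter on low counts. Between senescent and control 2 of 45 were called higher and 0 lower, near the 4.47% and 3.95% of all genes. They were Acvrl1, a type I receptor known from endothelial cells, at 29.2 ± 5.25 and 59.8 ± 6.64 CPM (log2 difference 1.04, SE 0.26, adjusted p of 0.0218), and Chrdl1, a chordin-like BMP antagonist, at 0.225 ± 0.249 and 2.08 ± 1.57 CPM (3.24, SE 0.85, adjusted p of 0.0249). The Chrdl1 samples overlapped, with 0.047 to 0.51 CPM in control and 0.272 to 3.1 CPM in senescent, and its control total was 19 counts. The median log2 difference of the list was 0.17, beside 0.07 for all genes. Without the control of mouse 6 or the senescent sample of mouse 5, 0 of the list were called.

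At 100 µg/mL against senescent none of the 45 was called by edgeR, and 12 had an unadjusted p under 0.05, beside 19.8% of all genes. DESeq2 called 5 of the 45, and 770 of all 15034 genes. Of all genes, edgeR called 1.1% higher and 1.6% lower here. The median was −0.08 beside −0.02 for all genes. At 300 µg/mL 1 was called higher and 0 lower (0.752% and 0.885% of all genes), Pcsk6, a proprotein convertase that can cleave BMP precursors, at 42.3 ± 16 CPM in senescent and 96.1 ± 18 CPM in treated cells (log2 difference 1.18, SE 0.27, adjusted p of 0.0397), with a median of 0.07 for the list beside 0 for all genes. No pathway gene was called in 5 of the 6 fits that left out 1 of these samples. No receptor SMAD, no other target gene (0 of 7) and no E-protein partner of the IDs (0 of 3) was called at either dose against senescent.

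Against control 10 of the 45 were called higher and 1 lower at 100 µg/mL, and 8 higher and 1 lower at 300 µg/mL. Of all genes, 10.3% were called higher and 9.37% lower at 100 µg/mL, and 9.87% and 8.11% at 300 µg/mL. The list had medians of 0.17 and −0.11 beside 0.09 and 0.07 for all genes. The genes called higher at both doses were the ligand Gdf6, the proprotein convertases Pcsk5 and Pcsk6, the receptors Acvrl1 and Acvr2a, the co-receptor Rgma and the antagonists Chrd and Chrdl1. Of the sequence listed for Acvr2a 50.8%, and of that for Chrd 15.6%, overlaps a gene on the opposite strand. As for Bmp4, whether counting used the strand is not given. Nbl1 and Twsg1, secreted BMP-binding proteins, were called higher at 100 µg/mL alone, and Furin, the convertase that cleaves BMP precursors, was called lower there, by −1.1 (SE 0.17, adjusted p of 0.000515). Chrdl1 had the largest difference, at 12.1 ± 4.27 CPM and 10.8 ± 2.18 CPM with the low and the high dose, and of 5.78 (SE 0.91) and 5.62 (SE 0.9) on the log2 scale against control. Its differences from senescent, 2.54 (SE 0.75, adjusted p of 0.0732) and 2.38 (SE 0.74, adjusted p of 0.127), did not pass. Gdf6 gave 2.36 ± 0.452 CPM at 100 µg/mL against 0.26 ± 0.186 CPM in control. At 300 µg/mL it was called (2.5, SE 0.84, edgeR adjusted p of 0.0449) although its samples overlapped with control. They ran from 0.388 to 2.32 CPM, beside 0.047 to 0.393 CPM in control. All of its sequence (100%) belongs to a single listed transcript, the kind that shifted from library to library.

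**Figure D4:**
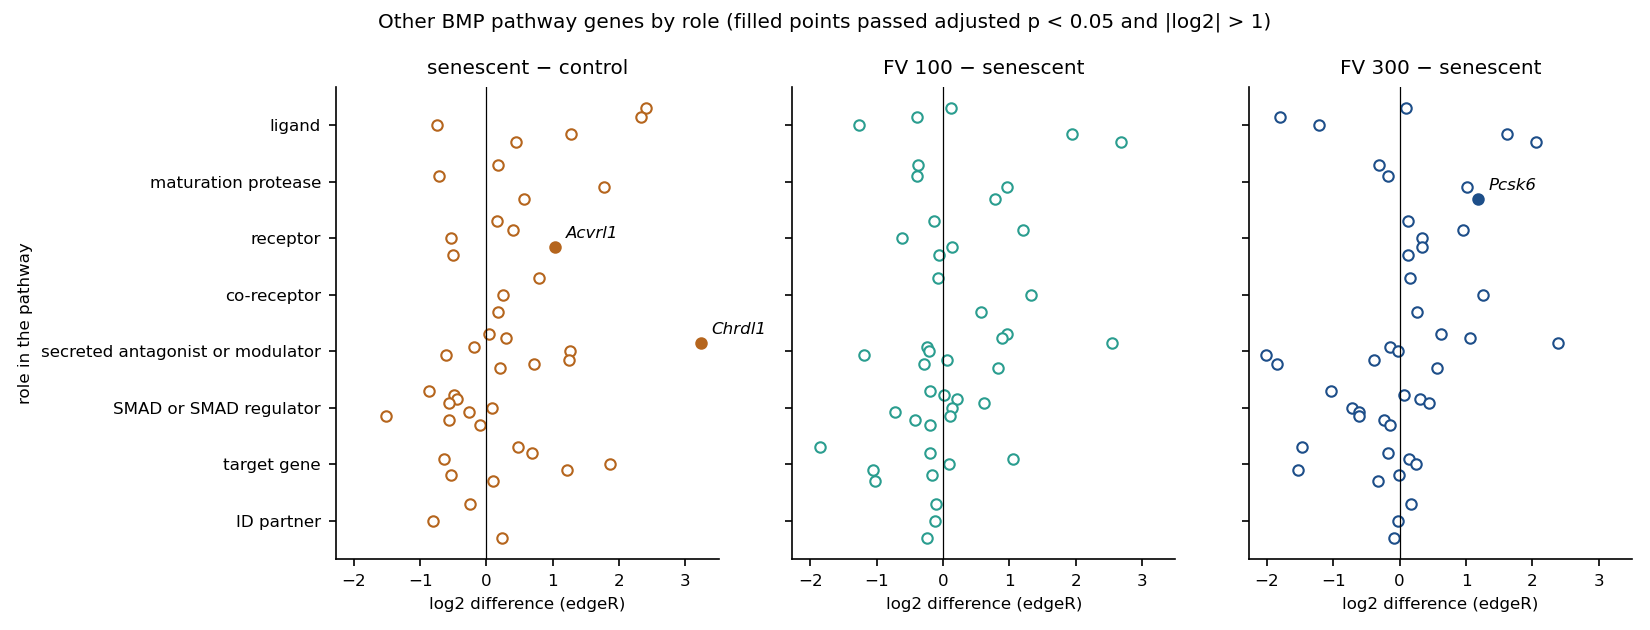
Log2 difference (x axis, edgeR) of the 45 tested pathway genes that are not members, grouped by role (y axis), for senescent minus control and each Fucoidan-FV dose minus senescent. Filled, named points passed the test: Acvrl1 (1.04) and Chrdl1 (3.24) in senescent cells and Pcsk6 (1.18) at 300 µg/mL, with none at 100 µg/mL.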

How the data were processed

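Total RNA of wild-type MEFs was sequenced with a stranded total RNA kit. Per the labels and the methods, the authors used FastQC 0.12.1, Trimmomatic, STAR 2.7.11b to GRCm39 and RSEM 1.3.1. The deposited files give RSEM expected counts and TPM for each of 57010 genes. Whether counting used the strand is not given in the sources used here. A deposited table of the same counts for all libraries was not used.

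Expected counts were rounded, and libraries 5(1) and 5(2) of the control of mouse 5 were summed. Groups came from the titles. Tests used edgeR 4.0.16 (R 4.3.3, quasi-likelihood, TMM scaling, filterByExpr with a minimum count of 10 and a minimum total of 15), 1 fit over the 4 groups with no block, and Benjamini-Hochberg adjustment over 15034 genes. A call is an adjusted p under 0.05 with an absolute log2 difference over 1. The p-values measure the spread between 3 cultures per group. The 22782536 to 31278750 counts per library set the precision, and a count of 0 allows up to 3. CPM of samples are counts over the library totals left after the filter, scaled by the TMM factors. Those of libraries 5(1) and 5(2) alone are counts over plain library totals. The code was tested on simulated data.

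The mouse numbers pair the samples, since a number marks the animal of origin. Deviations of same-numbered samples from their group means correlated at a median r of −0.037 (−0.33 to 0.6, 18 pairs, 8 over 0.1). Members and gene lists were chosen with earlier results of these data known. Named genes were the members, pathway genes called against control or senescent, subfamily partners (such as Gdf10, Id4 and Bmpr1b), and the 3 genes most like Bmp3 and Id1. A gene that this rule names is not reported here. The alternatives tried were DESeq2 1.42.0, RLE scaling, other filters, only the groups compared, single control libraries, a mouse block, an offset per library and gene for the share of single-transcript sequence, and leaving out each sample. Motifs were searched in GRCm39 upstream of GENCODE starts.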

Additional observations from a re-analysis of the deposited data

How the results depend on the processing

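Of 198 recomputed counts of calls, 156 stayed within 1.5 times the reported count and 42 did not. Of 990 recomputed log2 values of single genes, 874 kept direction and side of the threshold, 37 lost a call, 41 gained one and 38 changed sign. The cause of these changes was not tested, and with 3 samples a group the calls of the ID genes against senescent cells lay near the threshold. For members in senescent against control, calls went from 1 to 2 with no filter beyond 1 count and with the single-transcript offset plus replicate block. They went to 0 with at least 10 counts in every sample, a filter that removes Bmp4. Of all genes, 1266 of 15034 were called in this comparison, and 1498 of 27238, 1454 of 15034 and 1051 of 11240 with these settings in turn. At 100 µg/mL against senescent the member calls went from 3 to 6 with no filter and to 1 with only these groups in the fit. At 300 µg/mL they went from 0 to 3 with DESeq2, 4 with no filter and 1 with only these groups (Bmp4). The offset, with or without the replicate block, gave 1 there. Calls over all genes moved as well. At 100 µg/mL, 405 of 15034 became 800 of 27238 with no filter and 168 of 14400 with only these groups. At 300 µg/mL, 246 of 15034 became 606 with DESeq2, 399 with the offset and 356 with offset and block. There they were 580 of 27238 with no filter and 101 of 14011 with only these groups. Leaving out 1 replicate gave 1 to 1 member in senescent against control, and 0 to 1 and 0 to 0 at 100 and 300 µg/mL against senescent. It gave 4 to 7 and 3 to 5 against control, and 0 to 0 between doses. Over all genes, in the same order, these fits called 911 to 1456, 136 to 365, 46 to 220, 2262 to 2700 and 2182 to 2656. Between doses they called 0. For the other pathway genes, senescent against control went from 2 to 4 with DESeq2 or with adjusted p alone. It went to 1 with only these groups and 5 with control library 5(1) alone. Of all genes, DESeq2 called 1720 of 15034, the fit of only these groups 699 of 13709 and that with library 5(1) alone 1396 of 15030. At 100 µg/mL against senescent, 0 became 5 with DESeq2, 1 with RLE factors and 4 with no filter. It became 1 with at least 10 counts in every sample, and 2 with the offset, with or without the block. Of all 15034 genes, DESeq2 called 770, RLE factors 321, and the offset 441 with or without the block. With at least 10 counts in every sample it was 338 of 11240, and with no filter as given for the members. At 300 µg/mL against senescent, 1 became 2 with DESeq2, 5 with no filter and 0 with only these groups or with library 5(1) alone. It became 2 with the offset, with or without the block. Of all genes, 220 of 15030 were called with library 5(1) alone, and with the other settings as given for the members. At 300 µg/mL against control, 9 became 14 with adjusted p alone. Calls over all genes were not counted with adjusted p alone, so its counts here and in senescent against control have no background. Without 1 replicate these pathway counts ran from 0 to 2, 0 to 1, 0 to 1, 8 to 10 and 5 to 9.

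The replicate block by mouse called 1, 2, 0, 7, 5 and 0 members in the 6 comparisons in the order senescent against control, 100 and 300 µg/mL against senescent, 100 and 300 µg/mL against control, and 300 against 100 µg/mL, where the fit without it called 1, 3, 0, 6, 4 and 0. Over all genes, in the same order, the block called 1137, 321, 207, 2819, 2546 and 0, beside 1266, 405, 246, 2955, 2704 and 1 without it. Beyond Id3, Bmpr2 and Grem1, as given with the results, the block changed no other call of a member.

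Changes of sign concerned differences that were not called. In senescent against control, Bmpr2 became −0.21 and Id3 −0.01 with control library 5(2) alone. At 100 µg/mL against senescent, Bmp2 became −0.13 with the block, −0.62 with the offset and −0.74 with both, and Grem1 −0.07 and −0.04 with the offset without and with the block. At 300 µg/mL against control, Bmp2 became 0.29 with control library 5(1) alone, 0.47 with the block, 0.06 with the offset and 0.49 with both. Between the doses, the offset without and with the block gave 0.01 and 0.04 for Grem1 and 0.11 and 0.13 for Id3. Without 1 replicate, the log2 difference in senescent against control ran from −0.12 to 0.45 for Bmpr1a, −0.34 to 0.52 for Bmpr2 and −0.41 to 0.28 for Id3. It ran from −0.48 to 1.14 for Bmp2 at 100 µg/mL and −1.04 to 0.97 for Grem1 at 300 µg/mL against senescent, and from −0.57 to 0.86 for Bmp2 at 300 µg/mL against control. Between the doses it ran from −0.29 to 0.69 for Bmp4, −0.48 to 0.26 for Bmp6, −0.07 to 0.9 for Id1 and −0.41 to 0.22 for Id3.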
